A study of Mus musculus with 12 samples.

Results

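The genes analysed here encode the nuclear subunits of the oxidative phosphorylation machinery, and they were followed in hippocampal RNA from 12 mice. They were chosen by symbol among the RefSeq coding entries, as Ndufa, Ndufb, Ndufc, Ndufs and Ndufv genes (without the Ndufaf assembly factors), Sdha to Sdhd, Uqcr genes, Cox4 to Cox8 genes and Atp5 genes. This gave 85 genes of the 24652 gene features in the deposited tables, carried by 99 RefSeq entries. Complex I had 38 of them, complex II 4, complex III 8, complex IV 18 and complex V 17. Ndufa4 was counted under complex I by its symbol, although its protein is also described as part of complex IV.

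Adeno-associated virus (AAV5) vectors were injected into the hippocampus of male C57BL/6 mice at an age of 10 weeks, and the tissue was taken 10 weeks later. In the miR-9 experiment, 3 mice received GFP-miR-9sp and 3 received GFP Ctrl. In the miR-34 experiment, 3 other mice received GFP-miR-34sp and 3 others GFP Ctrl. A sponge is a transcript with several binding sites for a miRNA family, made to draw that miRNA away from its targets. All 4 groups expressed GFP, and the synapsin promoter drives expression in neurons, whereas the RNA came from the whole tissue. Only 1 set of GFP Ctrl mice is labelled with its experiment, miR-34, and the remaining set was taken as that of the miR-9 experiment. The labels give the cell type as hippocampal neurons, but markers of other cells were present: the summed level of 6 neuronal markers was 2097 to 2434 CPM (counts per 1000000 normalised reads) per mouse, that of 5 astrocyte markers 1182 to 1447 and that of 4 microglia markers 299.6 to 352.6. In such bulk tissue, fewer cells of a type and less RNA per cell cannot be told apart. Each mouse is a separate animal, and p-values measure the spread between these mice only.

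In the inner membrane of the mitochondrion, complexes I and II take electrons from NADH and succinate, complex III passes them to cytochrome c, and complex IV hands them to oxygen. Complexes I, III and IV pump protons, and complex V, the ATP synthase, uses the gradient to make ATP. Neurons depend heavily on this pathway for ion pumping and synaptic transmission. Apart from a small set encoded in mitochondrial DNA, which was not analysed here, the subunits are encoded in the nucleus. Their mRNAs are mostly short, and many have processed pseudogenes, copies of the spliced mRNA elsewhere in the genome.

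Stretches of these mRNAs occur again elsewhere in the genome, and their share per gene is set beside the levels below. Reads had 50 bases, so every 50-base window of the longest GENCODE M1 transcript of each gene was searched in the rest of the mouse genome mm9. The following windows lie in the spliced transcript, given 5′ to 3′, and each has an exact copy at the other locus named. Copies of Atp5g2, Atp5l and Atp5md lie in annotated pseudogenes (Gm10231, Gm10221 and Gm14539). The Cox5b copy lies in Gm11273, annotated as protein coding, and the Ndufs5 copy lies in the pseudogene BC002163, inside the annotated gene Zbtb20.
Atp5g2 (chr15:102493299-102501478, minus strand; copy at chr17:5816395-5816444): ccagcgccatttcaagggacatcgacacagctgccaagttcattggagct
Atp5l (chr9:44721333-44728825, minus strand; copy at chr5:24087500-24087549): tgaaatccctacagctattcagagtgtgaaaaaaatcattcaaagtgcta
Atp5md (chr19:47157961-47165115, minus strand; copy at chrX:20158327-20158376): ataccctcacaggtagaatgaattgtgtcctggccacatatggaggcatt
Cox5b (chr1:36748332-36750230, plus strand; copy at chr13:21593083-21593132): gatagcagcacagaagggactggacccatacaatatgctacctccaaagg
Ndufs5 (chr4:123389953-123395445, minus strand; copy at chr16:42955917-42955966): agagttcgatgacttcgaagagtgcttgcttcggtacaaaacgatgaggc

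The share of a transcript's windows with such a copy was 100% for Atp5g2, 89.39% for Atp5l, 79.79% for Atp5md, 62.67% for Cox5b and 49.76% for Ndufs5. Of the 85 genes, 45 (52.9%) had at least 1 window elsewhere, against 34.4% of the 11814 genes tested between the controls that had a transcript. In 25 genes (29.4%) more than 10% of the windows were found elsewhere, against 9.9% of those 11814 genes.

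The sponges bind miRNAs through the seed, bases 2 to 8, shown in capitals in the RefSeq sequences of the miRNAs.
mmu-miR-9-5p: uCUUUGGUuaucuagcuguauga
mmu-miR-34a-5p: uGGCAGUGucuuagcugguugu
mmu-miR-34b-5p: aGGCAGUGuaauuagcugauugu

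Both miR-34 members shown share their seed. The sense strand of the longest annotated 3′ UTR was searched for the complement of the seed followed by A (an 8mer, ACCAAAGA for miR-9 and CACTGCCA for miR-34) and for the heptamer without the A, which every 8mer also holds. The UTRs of the 85 genes had a median length of 189 bases, against 1186 bases over the 11783 genes tested in the miR-9 experiment. The miR-9 8mer was found in 1 of 85 genes (1.18%, against 4.4% of all), namely Ndufb2, and the miR-34 8mer in 0 of 85 (against 5.95% of 11357 genes). The miR-9 heptamer was found in 2 genes (2.35%, against 13.76%), Ndufb2 and Ndufab1, and the miR-34 heptamer in 2 genes (against 17.08%), Atp5g1 and Sdhc. Atp5g1 had too few reads to be tested, and the sites of the other genes on mm9 are given below with the match in capitals. A match of letters describes the sequence and does not show binding.
Ndufb2 (chr6:39552992-39553019, plus strand): aacagtcactttaaACCAAAGAtgcagg
Ndufab1 (chr7:129230130-129230156, minus strand): aaaaaaagaaaggtACCAAAGtgtgaa
Ndufab1 (chr7:129229713-129229739, minus strand): ttatggttcagtggACCAAAGgacctt
Sdhc (chr1:173059611-173059637, minus strand): accgccccgagtgcCACTGCCtgtggg

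Most of the pathway was well expressed in the hippocampus. Levels between genes are given per length, as reads per kilobase of the entry per 1000000 normalised reads (RPKM), averaged over the 12 mice. Among genes above 10 CPM, the median was 111.9 RPKM in complex I (31 of 38 genes), 116.6 in complex II (4 of 4), 168.7 in complex III (8 of 8), 307.6 in complex IV (10 of 18) and 197.4 in complex V (15 of 17). The highest level of all was that of Atp5b, the catalytic beta subunit of ATP synthase, at 763.0 RPKM, and its partner, the alpha subunit gene Atp5a1, had 488.0. In complex IV the highest was Cox4i1, the ubiquitous form of subunit 4, at 633.5 RPKM, followed by Cox8a at 627.1. Ndufa4 was the highest of those counted under complex I at 421.2, Sdha, the flavoprotein of succinate dehydrogenase, led complex II at 209.3, and Uqcrh, the hinge protein of complex III, had 219.8. The lowest of these levels in complexes I to IV were those of Ndufv3 (9.072 RPKM), Sdhd, a membrane anchor (82.89), Uqcrfs1, the Rieske iron-sulphur protein (116.9), and Cox7b (133.0).

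**Figure D1:**
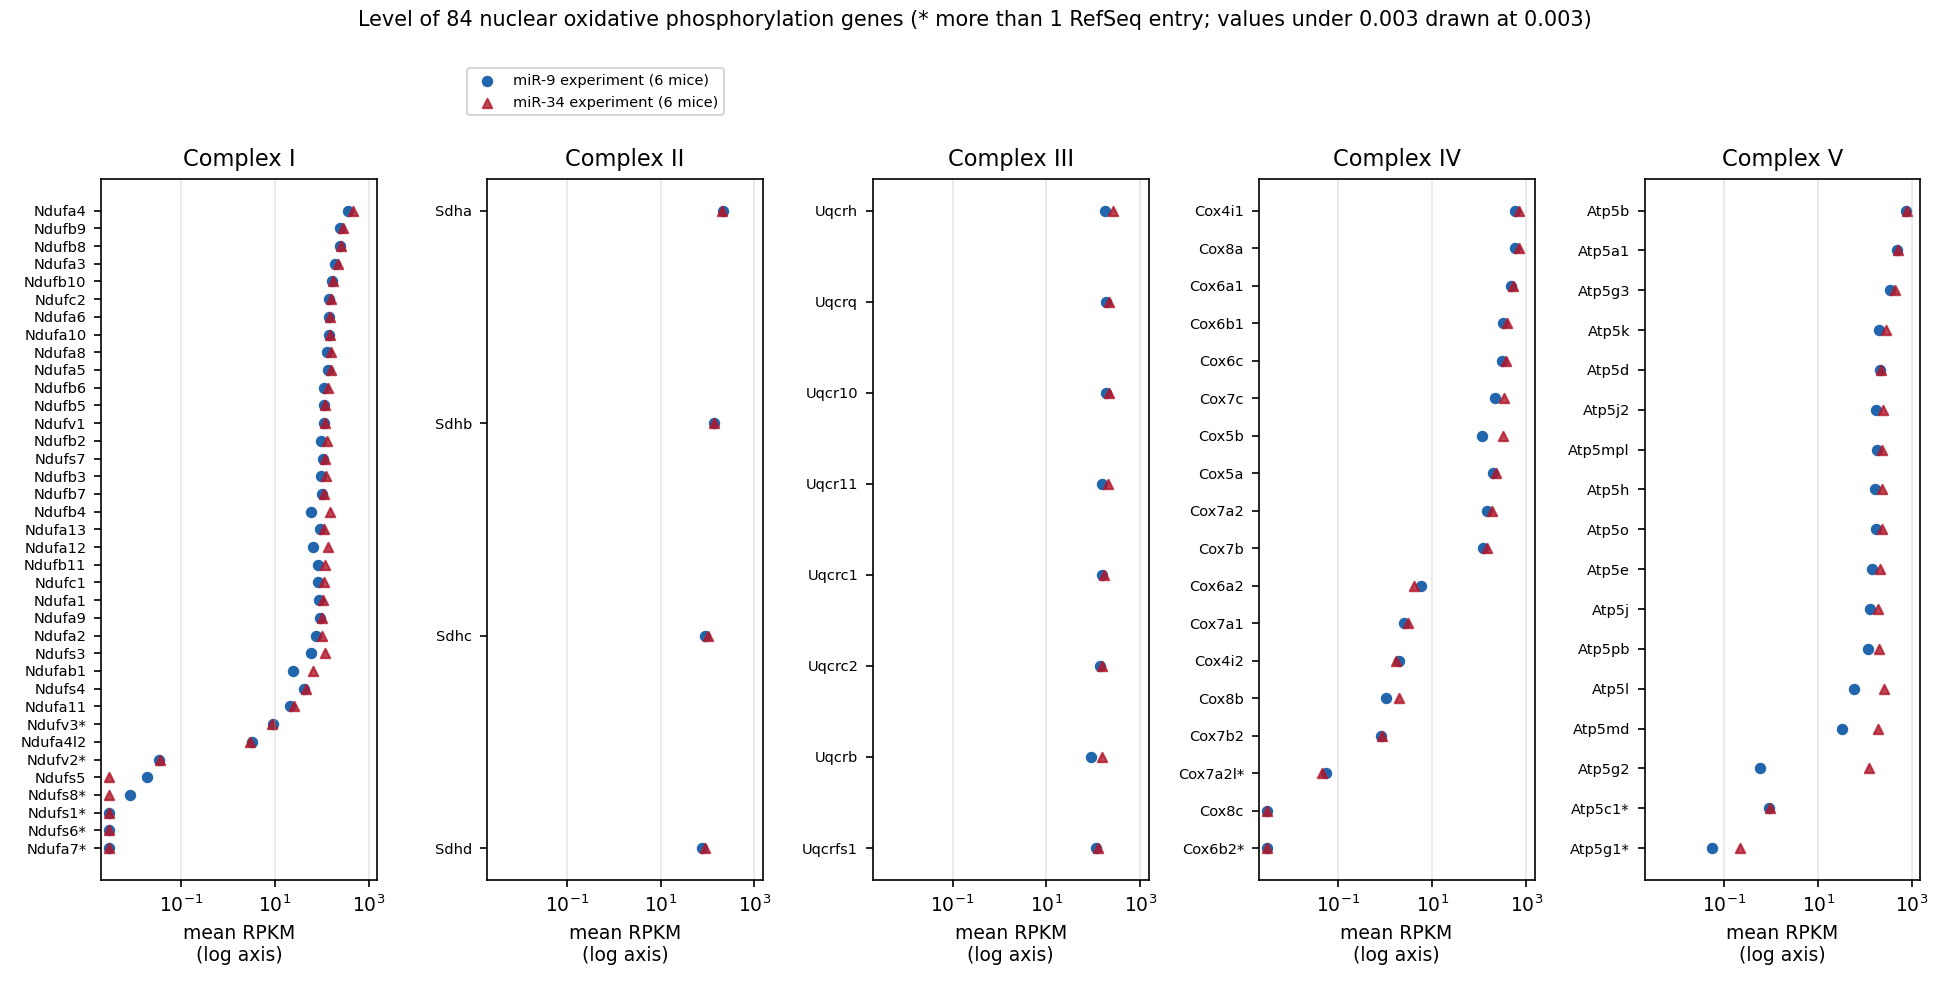
Level of 84 of the 85 genes by complex, as the mean RPKM (log axis) over the 6 mice of the miR-9 experiment (circles) and over the 6 mice of the miR-34 experiment (triangles). Most genes lie above 20 RPKM in both experiments, the marked genes with more than 1 RefSeq entry lie below 10, and Atp5g2 shows the widest gap between the symbols.

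Where a subunit has isoform genes, the form known from brain and most other tissues carried nearly all reads per length. Cox4i1 had 633.5 RPKM and Cox4i2, a form induced by low oxygen, 1.806. Cox6a1 had 499.4 RPKM and the muscle form Cox6a2 4.886, and Cox7a2 had 165.9 against 2.75 for the muscle form Cox7a1. Cox8a had 627.1 RPKM, Cox8b 1.463 and the testis form Cox8c no read in any mouse. Ndufa4 had 421.2 RPKM and its paralogue Ndufa4l2 3.095. Subunit c of ATP synthase, which forms the rotor ring, is encoded by 3 genes with an identical mature protein. Atp5g3 had 386.7 RPKM and Atp5g1 0.1373. Atp5g2 differed between the experiments, with 0.5664 in the 6 mice of the miR-9 experiment and 118.7 in the 6 mice of the miR-34 experiment. Atp5g1 has 2 RefSeq entries, and 100% of the Atp5g2 windows were found elsewhere. The values of Atp5g1 and Atp5g2 were not read as their expression in the tissue.

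The low values were not limited to tissue-restricted isoforms. Ndufs1, the largest core subunit of complex I, was listed at 0 in all 12 mice over 4 entries, as were Ndufs6, Ndufa7, Cox6b2 and Cox8c. For a gene at 0 reads, a count of 3 allows a share of up to 1.23e-05% to 2.72e-05% of a mouse's reads, for counting error only. Ndufs8 and Ndufs5 had 1 read in all mice together, and Ndufv2, Cox7a2l and Atp5g1 had few reads. Atp5c1, the gamma subunit that forms the central stalk of ATP synthase, had only 0.9213 RPKM. Ndufs1, Ndufs8, Ndufv2 and Atp5c1 are known as indispensable parts of their complexes, so these values were not read as their expression in the tissue.

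The number of RefSeq entries per symbol moved with these values. Of the 75 genes with 1 entry, 67 were above 20 RPKM and their median was 144.7. Of the 10 genes with 2 or more entries (Atp5c1, Atp5g1, Cox6b2, Cox7a2l, Ndufa7, Ndufs1, Ndufs6, Ndufs8, Ndufv2 and Ndufv3), 0 were above 20 and the median was 0.0198. Over all genes, 23.7% of 15883 genes with 1 entry and 2.1% of 4518 genes with 2 or more entries were above 20 RPKM. How reads shared between entries were counted is not given in the sources used here, and its part in these values was not tested. Ndufs5 has a single coding entry with 1 read in all, while the non-coding entry of its processed copy Ndufs5-ps had 948 to 1877 reads per mouse, or 70.17 to 92.24 CPM. The copy printed above lies in that locus.

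Levels varied little between mice of a group. Over the 67 genes above 10 CPM in every group, the median coefficient of variation was 2.33% in the GFP Ctrl mice and 2.35% in the miR-9sp mice of the miR-9 experiment, and 2.8% and 2.9% in those of the miR-34 experiment. Atp5md had the highest value in 3 of the groups, 15.4% in GFP Ctrl of the miR-9 experiment. Depth differed between the experiments, with totals of 17279620 to 24428477 counted reads for mice of the miR-9 experiment and of 11029604 to 16934133 for mice of the other.

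Together the 85 genes took 1.028%, 1.05% and 1.055% of the counted reads in the 3 miR-9sp mice, and 1.033%, 1.045% and 1.057% in their GFP Ctrl mice. The groups overlapped, with means of 1.044 ± 0.0144% and 1.045 ± 0.012% (SD, n = 3; two-sided exact permutation test, p = 1.0). In the miR-34 experiment the shares were 1.2%, 1.203% and 1.21% after miR-34sp and 1.202%, 1.214% and 1.215% in GFP Ctrl, which also overlapped (p = 0.3 in the exact permutation test). Between the control groups the share differed by a ratio of 1.158, and all GFP Ctrl mice of the miR-34 experiment lay above those of the miR-9 experiment. With 3 mice against 3, the exact permutation test cannot give a p under 0.1, which is the value it gave here. The 85 genes were chosen with earlier results of these data known, so p-values of shares, here and by complex, are descriptions only.

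By complex, the ratio of the control groups was 1.154 for complex I, 1.134 for complex III, 1.225 for complex IV and 1.18 for complex V. Complex II stood apart from these. It took 0.09656 ± 0.000654% of the reads in GFP Ctrl of the miR-34 experiment and 0.09752 ± 0.00107% in GFP Ctrl of the miR-9 experiment, with overlapping mice (SD, n = 3; exact permutation test, p = 0.4). Within each experiment, sponge and control shares differed by less than 2% in every complex, with ratios of 0.9904, 0.9938, 0.9981, 1.003 and 1.006 for complexes I to V after miR-9sp and of 0.9939, 0.9851, 0.9992, 1.004 and 0.9922 after miR-34sp. In complex II the miR-34sp mice, with 0.09459%, 0.09515% and 0.09562%, all lay below their GFP Ctrl mice, with 0.09587%, 0.09665% and 0.09717% (exact permutation test, p = 0.1, the smallest it can give). These shares are of raw counts. In normalised CPM, the same groups overlapped for each of Sdha, Sdhb, Sdhc and Sdhd.

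**Figure D2:**
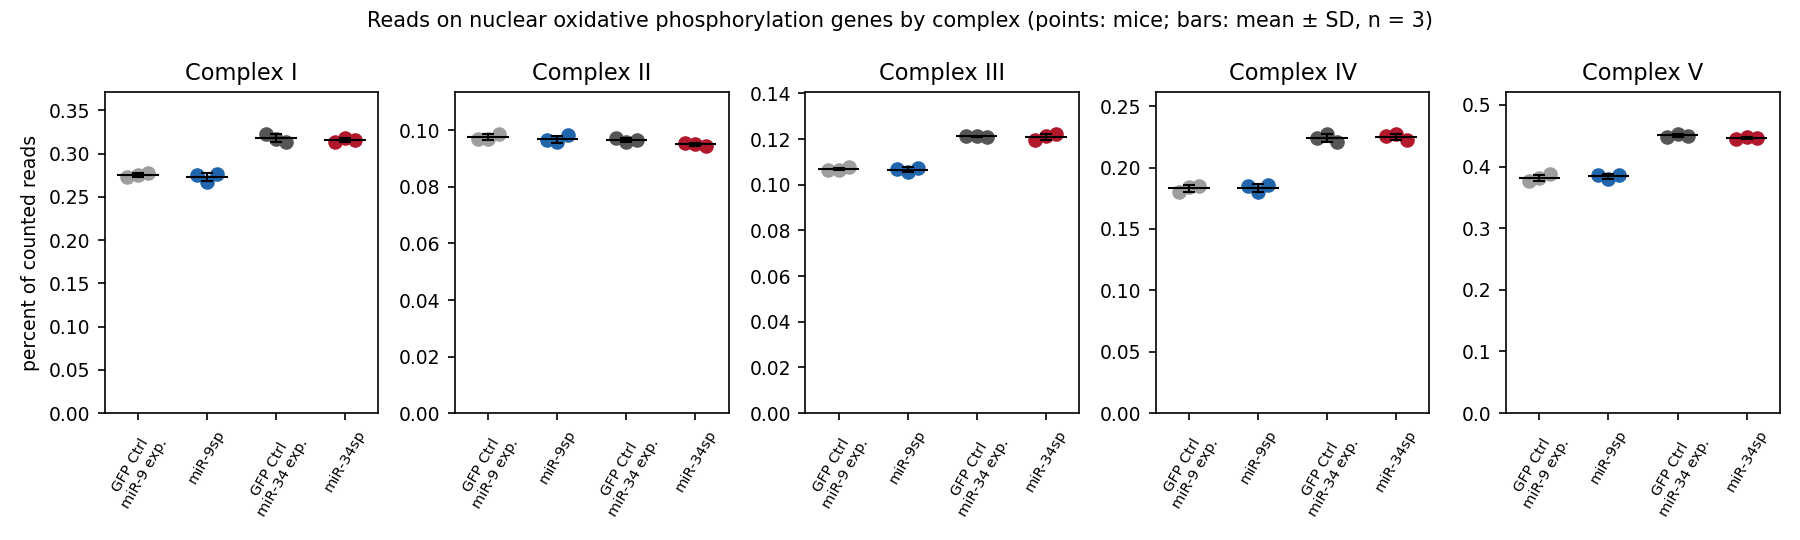
Percent of all counted reads on the genes of each complex in each mouse (points), with the mean and SD of each group (bars, n = 3). Sponge and GFP Ctrl means of an experiment differ by less than 2% in all panels, the miR-34sp mice lie just below their controls for complex II, and the mice of the miR-34 experiment sit above those of the miR-9 experiment for complexes I, III, IV and V but not for complex II.

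After miR-9sp, 72 of the 85 genes had enough reads to be tested. None of them passed the test. With edgeR's quasi-likelihood test, 0 of 72 had an adjusted p under 0.05, in a comparison where 0 of 13063 genes (0%) did, and 0 of 72 had an unadjusted p under 0.05, against 619 genes (4.74%). In DESeq2 the count with an adjusted p under 0.05 was also 0. The study's own criterion was an unadjusted p under 0.05 with a ratio of means above 1.2 or below its inverse. It was met by 0 of the genes and by 1.43% of all genes. More genes met it here than the paper reports for miR-9 inhibition, and the same held for miR-34. The median log2 fold change was 0.02 (-0.00044 over all genes tested), 48 values were above 0 and 24 below, and they ran from -0.06 for Ndufb5 to 0.32 for Atp5c1. The 13 genes not tested were Atp5g1, Atp5g2, Cox6b2, Cox7a2l, Cox7b2, Cox8b, Cox8c, Ndufa7, Ndufs1, Ndufs5, Ndufs6, Ndufs8 and Ndufv2.

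The values were tight enough to bound the change. For 65 of the 72 genes (90.3%) the 95% interval of the fold change lay wholly between the ratio 1.2 and its inverse, against 52.9% of all genes tested. The genes not within these bounds were Atp5c1, Atp5md, Cox4i2, Cox6a2, Cox7a1, Ndufa4l2 and Ndufv3, most of them with few reads. Sponge and control mice did not overlap for 11 genes, 6 higher (Atp5b, Cox4i1, Cox5a, Ndufa8, Ndufb2 and Uqcrc1) and 5 lower (Ndufa3, Ndufa5, Ndufb5, Ndufb10 and Ndufc1), while 10.3% of all genes tested did not overlap. All of these differences were small. In the same mice the summed level of 6 neuronal markers was 2388 to 2434 CPM after miR-9sp and 2200 to 2277 in GFP Ctrl, and that of 4 microglia markers 320.4 to 340.3 and 347.2 to 352.6, without overlap in either list. Eno2, 1 of the 6 neuronal markers and also an enzyme of glycolysis, made up much of the neuronal sum, with means of 1281 and 1189 CPM. The part of these markers in the values of the 11 genes was not tested.

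In the longest annotated 3′ UTR of Ndufb2, an accessory subunit of complex I, the miR-9 8mer printed above starts at base 3637. The counted RefSeq entry of Ndufb2 has only 455 bases, and whether it holds the match was not tested. The level of Ndufb2 was 44.9, 44.68 and 45.14 CPM after miR-9sp and 42.16, 42.23 and 43.62 in GFP Ctrl. All miR-9sp mice lay above all GFP Ctrl mice, by a log2 fold change of 0.07 ± 0.04 (SE; edgeR adjusted p = 0.97). In Ndufab1, the mitochondrial acyl carrier protein, with 2 heptamers, the levels were 19.58, 20.45 and 19.17 against 19.92, 20.35 and 19.81, which overlapped, with a log2 fold change of -0.02 ± 0.06 (SE). Those heptamers start at bases 1719 and 2136 of the annotated UTR, whereas the counted entry of Ndufab1 has 800 bases. Whether that entry holds them was not tested either.

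Catalytic and core subunits stayed within a few percent. Atp5b had 1378, 1402 and 1407 CPM after miR-9sp and 1352, 1348 and 1378 in GFP Ctrl, with a log2 fold change of 0.04 ± 0.03 (SE). For Cox4i1 the levels were 396.9, 399.8 and 409.5 after miR-9sp and 376.6, 384.4 and 393.7 in GFP Ctrl. The sponge mice of Cox4i1 lay above the controls, by 0.06 ± 0.04 on the log2 scale (edgeR adjusted p = 0.97). Ndufv1, a core subunit of complex I, had a log2 fold change of 0.06 ± 0.04, and Sdha, Uqcrc1 and Uqcrfs1 had 0.03 ± 0.04, 0.04 ± 0.04 and 0.04 ± 0.04 (SE).

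After miR-34sp, 73 genes were tested, the same as after miR-9sp with Atp5g2 added. None passed the adjusted test. In edgeR 0 of 73 had an adjusted p under 0.05, against 0.0320% of 12511 genes, and 2 of 73 had an unadjusted p under 0.05 (6.43% of all genes), Cox4i2 and Cox6a2. DESeq2 also gave 0. The median log2 fold change was -0.0046 (0.00041 over all genes), 32 values were above 0 and 41 below. For 67 genes (91.8%) the 95% interval lay between these bounds, against 49.7% of all genes, and those not within it were Atp5c1, Cox4i2, Cox6a2, Cox7a1, Ndufa4l2 and Ndufv3. Groups did not overlap for 6 genes, against 11.6% of all genes tested. These were Cox4i2 and Cox6a2, both higher, and Atp5d, Atp5mpl, Ndufa11 and Ndufb11, all lower.

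Both genes with a low unadjusted p are scarce isoforms of complex IV. Cox4i2 had 1.45, 1.668 and 1.509 CPM after miR-34sp and 1.196, 0.9252 and 0.52 in GFP Ctrl. This came to a log2 fold change of 0.77 ± 0.31 (SE; edgeR adjusted p = 0.711). Cox6a2 had 2.96, 3.072 and 3.093 after miR-34sp and 2.168, 1.943 and 2.6 in GFP Ctrl, with a log2 fold change of 0.44 ± 0.19 (SE; edgeR adjusted p = 0.76). Every miR-34sp mouse was above every GFP Ctrl mouse for both genes, but neither passed the test over all genes. The summed level of mural cell markers (6 of 8 with reads) was 202.0 to 206.4 after miR-34sp and 218.1 to 255.1 in GFP Ctrl, that of 3 parvalbumin interneuron markers 256.4 to 289.0 and 271.3 to 288.5, and that of 3 striated muscle markers 1.282 to 1.755 and 1.11 to 1.907. Their part in the isoform values was not tested.

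Cox8b, another scarce form of complex IV, moved the other way. It had 0.1813, 0.1755 and 0.3017 CPM after miR-34sp and 0.7477, 1.388 and 1.387 in GFP Ctrl, which did not overlap, but it was under the read limit. By the study's criterion 3 genes passed after miR-34sp (2.0% of 12520 genes did), Cox4i2 and Cox6a2 higher and Cox8b lower. When every gene with at least 1 read was tested, Cox8b was the only 1 of the 85 genes called, with a log2 fold change of -2.35 (edgeR adjusted p = 0.00978). The share of all genes called in that fit is not given here. Markers of the choroid plexus, the tissue beside the hippocampus that makes cerebrospinal fluid, differed in the same mice: 7 of 8 had reads, and their summed level was 72.58 to 151.7 after miR-34sp and 655.5 to 2398 in GFP Ctrl. Over the 12 mice the 5 highest values of this sum and of Cox8b came from the same mice, 3 GFP Ctrl mice of the miR-34 experiment, GFP Ctrl mouse 2 and miR-9sp mouse 17 of the miR-9 experiment. Whether choroid plexus tissue carried Cox8b was not tested.

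The abundant genes had small values after miR-34sp. Cox4i1 had 465.8, 474.8 and 459.0 CPM against 464.4, 461.1 and 475.9 in GFP Ctrl, with a log2 fold change of 0.00 ± 0.03 (SE; edgeR adjusted p = 1.0). Sdhc, with a miR-34 heptamer in its longest annotated 3′ UTR, had 117.2, 120.1 and 115.9 against 118.1, 124.2 and 125.1, a log2 fold change of -0.05 ± 0.04 (SE). Groups overlapped in both cases.

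A model of all 12 mice was used to compare the effects of both sponges directly. Of 73 genes, 0 had an adjusted p under 0.05 in edgeR, as for all 12855 genes (0%), and 0 had an unadjusted p under 0.05, against 6.18% of all. The median difference, miR-34sp effect minus miR-9sp effect, was -0.02 on the log2 scale, and for 64 genes its 95% interval lay within a ratio of 1.2 in either direction.

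**Figure D3:**
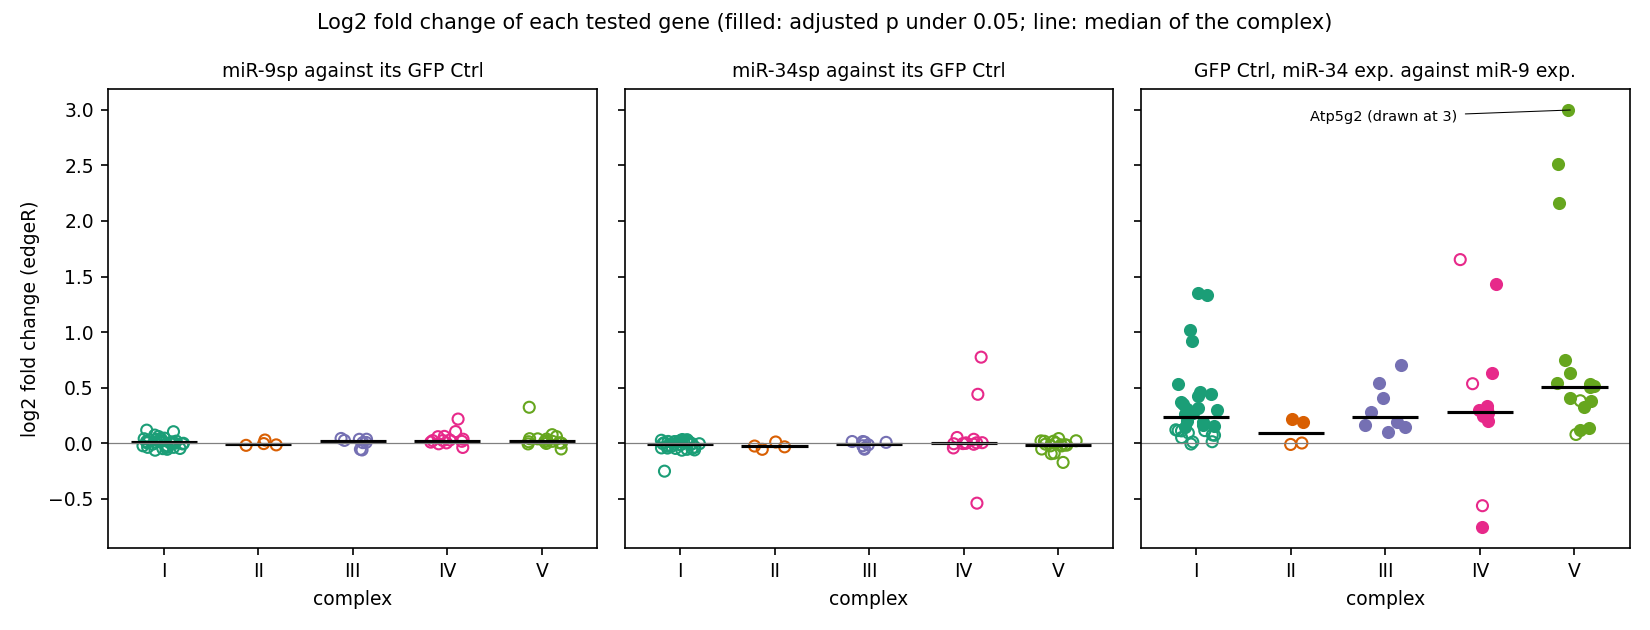
Log2 fold change (edgeR) of each tested gene by complex for miR-9sp and miR-34sp against their GFP Ctrl mice and for GFP Ctrl of the miR-34 experiment against GFP Ctrl of the miR-9 experiment. Filled points had an adjusted p under 0.05, lines are medians and Atp5g2 (7.59) is drawn at 3. No point is filled in the sponge panels, and 56 are filled in the control panel, 55 of them above 0.

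The GFP Ctrl mice of both experiments received the same vector, so their comparison gives the difference between the experiments. It shares its mice with both sponge comparisons, and experiment and batch cannot be told apart. The headers of the count columns contain totRNA for the miR-9 experiment alone. Of 74 genes tested, 55 were higher in the miR-34 experiment in edgeR (adjusted p under 0.05), against 14.1% of 12895 genes, and 1 was lower, against 10.8%. The median log2 fold change was 0.28, a ratio of 1.212, and 0.0031 over all genes tested. Groups did not overlap for 63 genes that were higher (22.3% of all genes) and 1 that was lower (18.1%). By the study's criterion 30 genes passed, 29 higher and 1 lower, against 17.9% of all genes.

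Complex V differed most and complex II least in the median. In complex V, 14 of 16 genes were higher, with a median log2 fold change of 0.51. In complex IV 10 of 14 were higher and 1 lower (median 0.29), in complex III 8 of 8 were higher (0.24) and in complex I 21 of 32 (0.23). In complex II 2 of 4 were higher (0.09), the membrane anchors Sdhc (0.19 ± 0.04, SE) and Sdhd (0.22 ± 0.04). The catalytic part of complex II had 613.5, 590.8 and 596.0 CPM for Sdha in GFP Ctrl of the miR-34 experiment and 597.2, 587.4 and 603.4 in that of the miR-9 experiment, which overlapped (log2 fold change 0.00 ± 0.03; edgeR adjusted p = 0.978). The iron-sulphur subunit Sdhb differed by -0.01 ± 0.04 (edgeR adjusted p = 0.857). The 4 genes of complex II have entries of 1073 to 2859 bases and at most 1.12% of windows elsewhere. Across all complexes, 12 tested genes had entries of at least 1000 bases and no window elsewhere, Sdha, Sdhb and Sdhd among them. Their median was 0.10, close to that of complex II, so the small difference was not particular to complex II.

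Atp5g2 had the widest gap. It had 73.72, 75.22 and 81.55 CPM in GFP Ctrl of the miR-34 experiment, from 813 to 986 reads, and 0.5989, 0.1809 and 0.3592 in GFP Ctrl of the miR-9 experiment, from 4 to 15 reads. The log2 fold change was 7.59 ± 0.15 (SE; edgeR adjusted p = 6.7e-11). It passed the read limit through the miR-34 experiment alone. The sponge mice followed their own experiment, with 77.15, 74.34 and 78.75 after miR-34sp and 0.299, 0.3486 and 0.4123 after miR-9sp.

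Other short subunits of the ATP synthase membrane part followed. Atp5l, subunit g, had 130.2, 131.7 and 133.9 against 28.07, 31.42 and 28.27 CPM, a log2 fold change of 2.16 ± 0.05 (SE; edgeR adjusted p = 2.25e-10). Atp5md, a small membrane subunit that links ATP synthase dimers, had 69.83, 64.95 and 55.12 against 10.82, 9.495 and 12.88, a log2 fold change of 2.52 ± 0.11 (SE; edgeR adjusted p = 5.07e-08). In neither gene did the groups approach each other. Atp5pb, subunit b of the peripheral stalk, was higher by 0.75 ± 0.03 (edgeR adjusted p = 4.86e-08), and Atp5h, subunit d of the same stalk, by 0.55 ± 0.04 (edgeR adjusted p = 1.49e-06).

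In complex IV, Cox5b, which lies on the matrix side, had 179.2, 179.1 and 172.5 CPM against 66.44, 66.78 and 61.68, a log2 fold change of 1.44 ± 0.04 (SE; edgeR adjusted p = 1.45e-09). In complex I, Ndufab1 had 49.87, 53.38 and 51.13 against 19.92, 20.35 and 19.81, a log2 fold change of 1.35 ± 0.05 (edgeR adjusted p = 2.01e-08). Ndufb4 had 69.98, 67.45 and 69.85 against 25.87, 25.86 and 30.27, a log2 fold change of 1.33 ± 0.07 (edgeR adjusted p = 1.05e-07). Ndufa12 (1.02 ± 0.04, edgeR adjusted p = 2.34e-08) and the core subunit Ndufs3 (0.92 ± 0.04, edgeR adjusted p = 5.02e-08) came next. Uqcrb led complex III with 0.71 ± 0.06 (edgeR adjusted p = 1.55e-05).

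Among abundant genes, Atp5g3 and Cox5a, with little or no sequence elsewhere, had smaller differences than Atp5g2 and Cox5b. Atp5g3, with 0% of its windows elsewhere, had 295.5, 290.3 and 287.9 CPM against 231.8, 223.2 and 237.6, a log2 fold change of 0.33 ± 0.03 (edgeR adjusted p = 5.99e-05). Cox5a, with 3.12% of its windows elsewhere, was higher by 0.26 ± 0.03 (edgeR adjusted p = 0.000236). Both calls were lost with a trend over entry length removed, with 0.07 for Atp5g3 (edgeR adjusted p = 0.153) and 0.01 for Cox5a (edgeR adjusted p = 0.808). Atp5b was higher by 0.14 ± 0.03 (edgeR adjusted p = 0.0101), a call lost with total counts as the only scaling (0.08, edgeR adjusted p = 0.0942), while Atp5a1, with 0.08 ± 0.03, did not pass (edgeR adjusted p = 0.109). Uqcrc1, a core protein of complex III, was higher by 0.10 ± 0.03 (edgeR adjusted p = 0.0414), a call that was lost when any of the 6 mice was left out (adjusted p of 0.07 to 0.135).

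**Figure D4:**
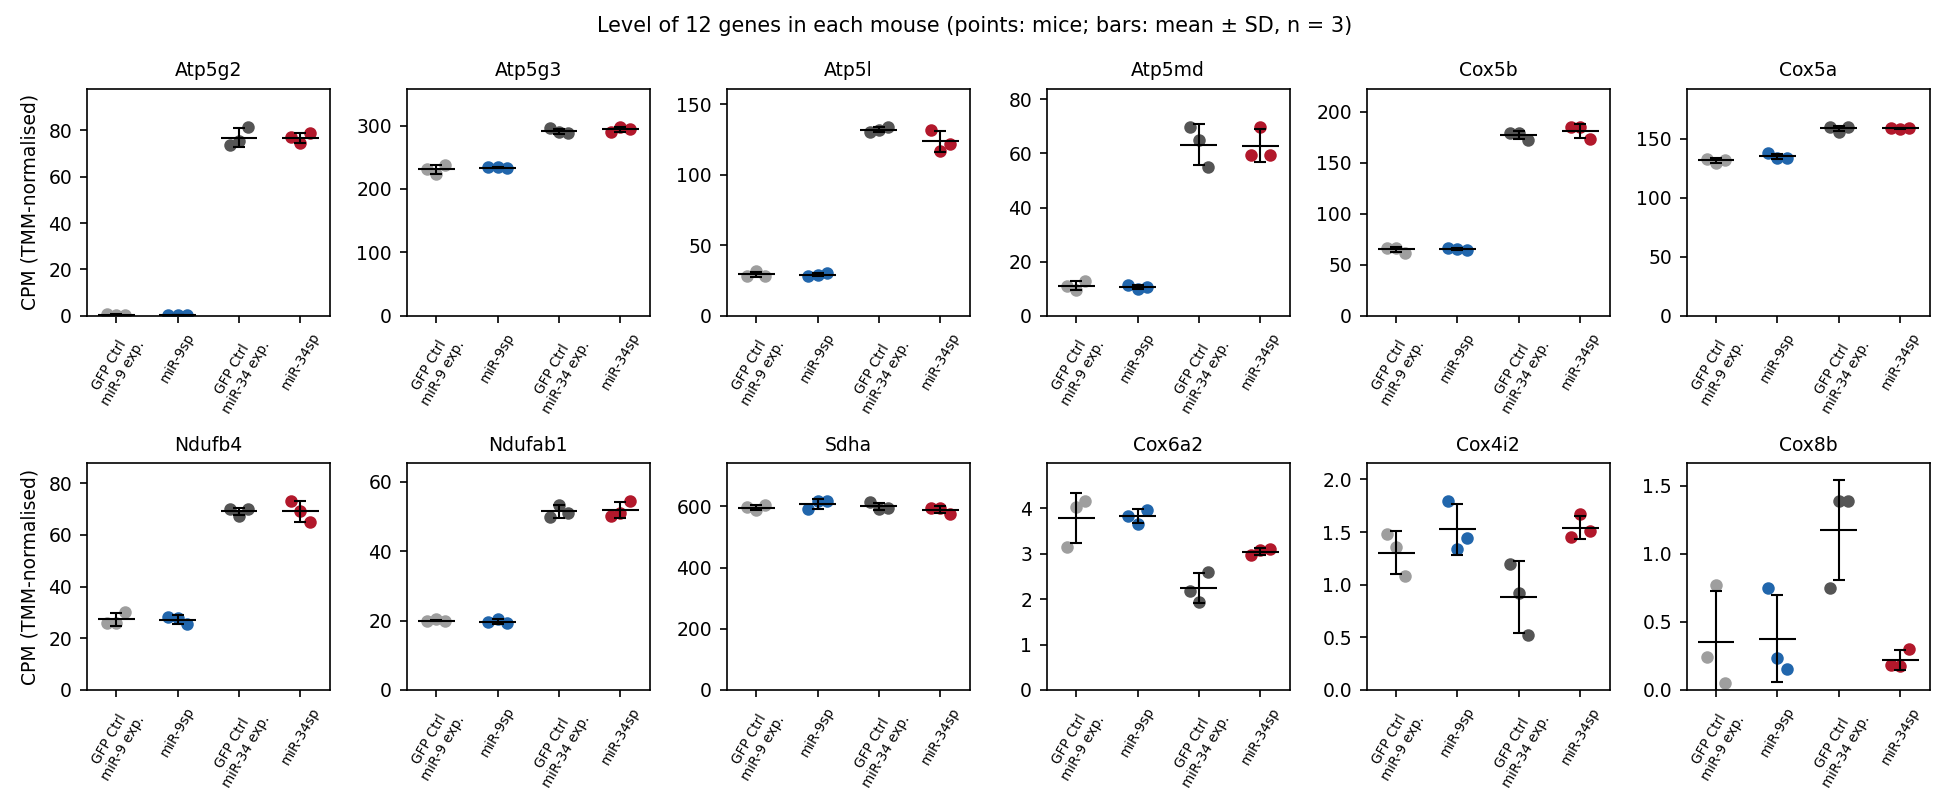
Level in CPM of 12 genes in each mouse (points), with the mean and SD of each group (bars, n = 3) and axes that start at 0. Atp5g2, Atp5l, Atp5md, Cox5b, Ndufb4 and Ndufab1 separate the experiments and not the sponge from its control, Atp5g3 and Cox5a differ less, Sdha overlaps in all groups, and the scarce isoforms Cox6a2, Cox4i2 and Cox8b lie below 5.

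Cox6a2 was the single gene called lower. It had 2.168, 1.943 and 2.6 CPM in GFP Ctrl of the miR-34 experiment and 3.154, 4.024 and 4.156 in that of the miR-9 experiment, a log2 fold change of -0.75 ± 0.19 (SE; edgeR adjusted p = 0.0157). The call was lost without GFP Ctrl mouse 10 (-0.73, adjusted p = 0.0514) or mouse 4 (-0.67, adjusted p = 0.0616) of the miR-34 experiment. Cox8b was higher by 1.65 ± 0.59 without passing (edgeR adjusted p = 0.0663). It had 10, 15 and 16 reads in GFP Ctrl of the miR-34 experiment and 6, 17 and 1 in that of the miR-9 experiment. It cleared the read limit through the former, the higher group. Without GFP Ctrl mouse 2 of the miR-9 experiment, which had the 17 reads, Cox8b was called, with 2.80 (edgeR adjusted p = 0.00615). Leaving out the highest mouse of the lower group widened the gap, so this call was not taken as a result. Mouse 2 had the second highest choroid plexus sum of the miR-9 experiment, 716.1.

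The size of the control difference moved with the share of the transcript found elsewhere. For the 34 tested genes with no window elsewhere the median log2 fold change was 0.13 and 17 were higher, for 18 genes with over 0% to 10% it was 0.27 and 16 were higher, for 16 genes with over 10% to 50% it was 0.53 and 16 were higher, and for the 6 genes with over 50% (Atp5g2, Atp5l, Atp5md, Cox5b, Uqcrb and Atp5h) it was 1.80 and 6 were higher. The medians of all genes tested in the same classes were -0.03 (7.12% higher), 0.01 (10.9%), 0.29 (56.6%) and 1.16 (88.6%). Across the 74 genes, Spearman's rho between the share of windows elsewhere and the log2 fold change was 0.725. No p is given, since the genes share the same 6 libraries. Ndufab1, with 12.62%, and Cox8b, with 0%, lie above the others at their shares.

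**Figure D5:**
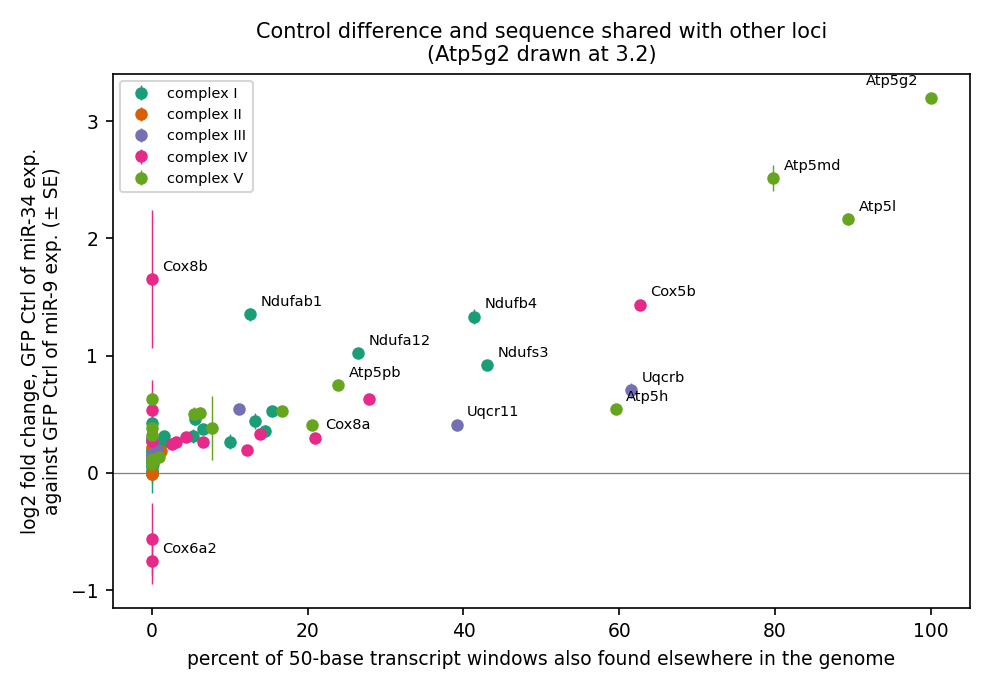
Log2 fold change of each of the 74 tested genes between the GFP Ctrl groups (with its SE) against the percent of 50-base transcript windows found elsewhere in the genome, coloured by complex. Genes with over 50% lie between 0.55 and 7.59 (Atp5g2, drawn at 3.2), and most genes with 0% lie between -0.01 and 0.63.

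Transcript length moved with the difference too. Across the 74 genes, Spearman's rho between entry length and log2 fold change was -0.501, again as a description over shared libraries. Among genes with no window elsewhere, the 22 entries under 1000 bases had a median of 0.17 and the 12 longer ones 0.10, while all such genes tested had medians of 0.16 (453 genes) and -0.04 (7300 genes). Fitted on genes with no window elsewhere alone, 21 of 34 were higher and 1 lower, with a median of 0.17. With a trend over entry length removed in each library from all genes, 25 of 74 were higher and 7 lower, with a median of 0.06, and Cox6a1, Cox6b1, Cox8a and Uqcrq turned below 0. With both steps together 10 of 34 were called, 7 of them higher, with a median of 0.06. The shares of all genes called in these 3 fits are not given here. The shares stated above belong to the main fit, so these counts cannot be set against them. The share of reads on genes with no window elsewhere was 0.5711 ± 0.00257% in GFP Ctrl of the miR-34 experiment and 0.5407 ± 0.00767% in that of the miR-9 experiment (SD, n = 3), a ratio of 1.056. Whether a difference in library preparation or in the counting of reads with several matches gave these patterns was not tested.

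In the sponge comparisons the medians of these classes spanned a far smaller range. In the classes of windows above, from none to over 50%, the medians after miR-9sp were 0.03, 0.02, 0.00027 and -0.01. Spearman's rho with the share of windows elsewhere was -0.329 across 72 genes, opposite in sign to that between the controls, whose miR-9 mice it shares. After miR-34sp the medians were -0.01, -0.01, 0.0045 and -0.01, and rho was 0.159 across 73 genes. Within an experiment, even Atp5l and Cox5b differed little between sponge and control, with log2 fold changes after miR-9sp of -0.01 ± 0.07 for Atp5l and 0.01 ± 0.05 for Cox5b, and after miR-34sp of -0.09 ± 0.05 and 0.04 ± 0.04 (SE).

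Neighbouring genes of the pathway were counted on lists fixed by symbol. In edgeR, 0 genes on these lists were called in either sponge comparison (adjusted p limit 0.05). Between the controls, 6 of 39 assembly factors were higher and 2 lower, with a median log2 fold change of 0.12, where 14.1% of all genes were higher and 10.8% lower. The share of assembly factors called higher was thus near that of all genes. Atpaf1, an assembly factor of the F1 part of ATP synthase with 69.49% of its windows elsewhere, was higher by 1.80 ± 0.06, and Cox10, which makes heme A for complex IV, and Ndufaf4 were lower by -0.29 ± 0.06 and -0.17 ± 0.05 (SE). Cycs, the electron carrier cytochrome c (38.45% elsewhere), was higher by 0.98 ± 0.03, and Cyc1, the cytochrome of complex III that its symbol left outside the 85 genes, by 0.13 ± 0.03.

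Enzymes of the TCA cycle, which feeds electrons to the chain, had 2 of 13 higher, Suclg2 (0.46 ± 0.08) among them, and Idh3a lower (-0.11 ± 0.03), with a median of 0.0033, and the share called higher was also near that of all genes. In glycolysis 7 of 13 were higher (median 0.18), led by Pgam1 (2.76 ± 0.03, 91.86% of windows elsewhere) and Pgk1 (1.01 ± 0.04, 92.91%). Of 73 mitochondrial ribosomal protein genes 28 were higher and 0 lower (median 0.16), with Mrpl23 at 3.72 ± 0.13 and 76.36% of its windows elsewhere. Among 12 regulators of mitochondrial gene expression 2 were higher, the transcription factor of mitochondrial DNA Tfb2m (0.73 ± 0.07, 81.54% elsewhere) and the nuclear receptor Esrra (0.25 ± 0.07, 0%), and 2 lower, the coactivator Pprc1 (-0.25 ± 0.06) and Gabpa, a subunit of nuclear respiratory factor (-0.22 ± 0.06), with a median of -0.07, and here too the share called higher was near that of all genes.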

How the data were processed

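RNA from 12 hippocampi was analysed. The authors deposited, for each RefSeq entry, a raw read count per mouse and another value, the entry length in bases. The study's methods map single end reads to mm9, whereas the submitters' processing notes name STAR and mm10. The rule for reads that match several places is not given in the sources used here. Of 32850 entries, 98.7% were matched to a symbol, and at most 2.18% of a library's counts lay on unmatched ones. Coding entries were summed per symbol.

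Genes with a mean of scaled reads above 10 were tested in edgeR 4.0.16 (quasi-likelihood F-test, R 4.3.3, TMM factors, Benjamini-Hochberg adjustment over all genes tested, limit 0.05), unpaired and with no covariate, as the study compares each sponge with its own GFP Ctrl mice. Standard errors are those of the log2 fold change. CPM and RPKM were computed with TMM-scaled totals. Shares use raw counts, with exact permutation tests whose p-values serve as descriptions only. Alternatives were DESeq2 1.42.0, other size factors and read limits, non-coding entries included, a length trend removed, the study's criterion and each mouse left out. Fits restricted to genes with no 50-base window elsewhere were chosen after seeing the data. Counts were simulated for the miR-9, miR-34 and control comparisons and the difference between the sponge effects. In these, 100%, 100%, 100% and 97% of 2-fold changes were recovered, and 97%, 93%, 98% and 84% of 1.5-fold changes. Changes were placed only in genes well above the read limit, with 1 common spread for all genes, so scarce isoforms and smaller changes were not covered.

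The 85 genes, the lists and the named genes were chosen with earlier results of these data known. Genes were named by a rule: those called (at most 10), the 3 highest and 3 lowest fold changes, the 2 highest and the lowest level in each complex, isoform pairs, core subunits and genes with an 8mer. Genes outside it, such as Sdhc and those listed because groups did not overlap, were named after their values were seen. Counts of 3 were taken as the floor. PCR copies cannot be told apart, so floors cover counting error only. The values of 1 member gene are not reported here, although it is counted among the 85.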

Additional observations from a re-analysis of the deposited data

How the results depend on the processing

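Of the 85 genes, the number called after miR-9sp was 0 under every alternative run, and so was that for the difference between the sponge effects. After miR-34sp it was 0 except with every gene of at least 1 read tested (1, Cox8b) and by the study's criterion (3). Between the controls, 56 were called, and the number was 22 on genes with no window elsewhere, 10 with the length trend also removed, 32 with the length trend removed from all genes and 30 by the study's criterion. The share of all genes called is given above only for the main fit and for the study's criterion. The median log2 fold change over the genes tested was 0.165 with no window elsewhere, 0.0639 with the length trend also removed, 0.061 with the length trend removed from all genes, and 0.218 with total counts as the only scaling. With each mouse left out in turn, 50 to 54 genes were called between the controls and the median ran from 0.256 to 0.297. The medians ran from 0.00506 to 0.0227 after miR-9sp and from -0.018 to -0.00104 after miR-34sp, and 0 genes were called in either. With coding reads as the denominator, the shares were 1.067% after miR-9sp, 1.067% in its GFP Ctrl, 1.23% after miR-34sp and 1.236% in its GFP Ctrl. With the heptamer in place of the 8mer, 2 genes had a match of miR-9 and 2 of miR-34.

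Between the controls, Cox6a1 (-0.125), Cox6b1 (-0.0948), Cox8a (-0.0157) and Uqcrq (-0.149) turned lower with the length trend removed, and Sdha had -0.0581 with total counts only. The difference between the sponge effects for Atp5g2 ran from -0.405 (without GFP Ctrl mouse 16 of the miR-9 experiment) to 0.477 (without GFP Ctrl mouse 2), from few reads in that experiment. The cause was not tested. Main counts, medians and shares were kept in 115 settings and moved in 16. Single genes and further values, such as medians by complex, kept their direction and call in 2050 settings and moved in 24. Among the latter was the complex IV median after miR-9sp, 0.0243 in the main fit and 0.0824 with no window elsewhere. Between the controls, 27 settings lost and 7 gained the call of a single gene. No paired analysis was possible because the groups compared share fewer than 2 mouse numbers. Genes with few reads, such as Cox4i2 and Cox8b, limit what can be said of the scarce isoforms.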
